A study of Mus musculus with 6 samples.

Results

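The contractile and mesenchymal cytoskeleton of TM3 cells was read through 10 genes, fixed by name and matched through the transcript accession that the array gives for each probe. They are 3 of actin filaments (Acta2, Actg2 and the actin bundler Tagln), 3 of actin-bound regulators (Cnn1, Tpm1, Tpm2), 2 of smooth muscle myosin (Myh11, Myl9) and 2 of intermediate filaments (Vim, Des), out of 23462 named genes. All 10 had a probe, 18 probes together, of which 16 were well above background on all 6 arrays. TM3 is a mouse line, known as a Leydig cell line and labelled as somatic cells of the testis, and the labels give no genotype change, passage or clone. The control group, 3 samples, was kept at 0 µM nPNP for 24 h, and the treated group, 3 samples, at 10 µM nPNP (4-nitrophenol, PNP, a nitrated phenol) for 24 h. The labels number the replicates without saying whether each is its own culture, so every p-value and interval reflects a spread that may be technical.

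Smooth muscle cells contract when myosin II pulls on filaments of alpha and gamma smooth muscle actin. Tropomyosin and calponin lie along these filaments, and phosphorylation of the myosin regulatory light chain switches the motor on. Many of these genes are known targets of serum response factor (SRF), which binds the CArG box and is held in check by free actin through its myocardin-related cofactors. Vimentin and desmin build the intermediate filaments of mesenchymal and of muscle cells. In the testis this set marks the peritubular myoid cells around the seminiferous tubules, while Leydig cells carry vimentin.

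The measure throughout is the scaled log2 signal, the log2 of an array's processed signal minus the 75th percentile of that array. The 6 arrays had from 59.9% to 62.6% of spots well above background and no saturated spot, and the profiles of any 2 arrays correlated at 0.989 or more across 11110 genes. The arrays lay on 1 slide in rows 1 and 2, with controls 1, 2 and 3 in columns 1, 2 and 3 of row 1, PNP replicate 1 in column 4 of row 1, and PNP replicates 2 and 3 in columns 1 and 2 of row 2. The 75th percentile was 5571 ± 218 (SD, n = 3) in controls against 4941 ± 400 (SD, n = 3) with PNP. Spots marked as outliers made up 7.75% ± 1.27 (SD, n = 3) in controls against 12.3% ± 0.814 (SD, n = 3) with PNP. Both differences had a two-sided exact permutation p of 0.1, the smallest that 3 against 3 arrays allow. Outlier marks fell on 39.6% of the brightest 5% of spots, and bright probes of Vim, Actg2 and Tpm1 were among those left without enough values. The part that these array measures played in the values of the 10 genes was not tested.

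Markers of the cell types the line could hold were read next. Of the 7 Leydig cell markers, Star and Nr5a1 were well above background on all 6 arrays, Cyp11a1 and Lhcgr on none, Hsd3b1 on 1 and Cyp17a1 on 5, and no probe was named for Insl3. Of 7 peritubular myoid and smooth muscle markers 6 were above background on all arrays, all but Lmod1, and so were 9 of 10 fibroblast and mesenchymal markers, all but Lum. The epithelial markers Epcam and Cdh1, the endothelial Cdh5, Kdr and Tek, the leukocyte markers Ptprc and Adgre1, the Sertoli cell markers Amh, Dhh, Gata1 and Cldn11, and the germ cell markers Prm1 and Stra8 were not above background on any array. Other markers of the same lists were above background on all 6: Krt8, Krt18, Krt19 and Cldn7 of 6 epithelial markers, Csf1r, Cd68 and Itgam of 5 macrophage and leukocyte markers, Sox9, Dmrt1 and Wt1 of 7 Sertoli cell markers, Ddx4 and Sycp3 of 5 germ cell markers, and none of 5 endothelial markers. Of 9 skeletal and cardiac muscle markers 7 were, Myod1, Myh6, Myh7, Tnnt2, Tnnt3, Actc1 and Acta1. Contractile and mesenchymal genes were thus detected on all 6 arrays, as were some genes of every other list but the endothelial. Of the 6 Leydig markers with a probe 2 were, and Cyp17a1 was on 5 arrays. On each array 59.9% to 62.6% of spots were well above background, so detection alone does not tell cell types apart.

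The promoters of 3 of the genes are shown because their signals were higher on every array of even than of odd slide columns, as given below. The lines hold the 250 bases before the gene start from RefSeq on GRCm38.p6, on the strand of the gene, and capitals mark a match to the strict CArG box.
Myl9, chr2:156775214-156775463, plus strand: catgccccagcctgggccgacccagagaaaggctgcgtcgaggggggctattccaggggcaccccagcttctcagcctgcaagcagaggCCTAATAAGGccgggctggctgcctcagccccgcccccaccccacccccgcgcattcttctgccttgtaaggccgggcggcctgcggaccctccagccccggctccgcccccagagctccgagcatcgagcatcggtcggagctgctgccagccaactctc
Cnn1, chr9:22099003-22099252, plus strand: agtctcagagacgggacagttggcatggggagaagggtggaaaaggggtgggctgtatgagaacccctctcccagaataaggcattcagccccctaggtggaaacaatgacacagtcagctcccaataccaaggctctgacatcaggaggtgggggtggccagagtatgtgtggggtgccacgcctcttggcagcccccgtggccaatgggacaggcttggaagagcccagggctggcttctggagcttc
Des, chr1:75360042-75360291, plus strand: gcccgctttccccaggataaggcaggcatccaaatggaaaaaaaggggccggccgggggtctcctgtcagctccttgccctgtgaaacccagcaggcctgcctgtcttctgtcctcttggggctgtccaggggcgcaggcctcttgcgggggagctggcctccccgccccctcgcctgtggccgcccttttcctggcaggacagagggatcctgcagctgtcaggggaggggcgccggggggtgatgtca
Promoter windows were held for 7 of the 10 genes. The CArG box, searched on both strands, was found in 1 of these 7, that of Myl9, from 161 to 152 bases before the start, and in 1.47% of all 32851 windows of this length. The letters TATAA were found in 1 of the 7, that of Vim, and in 22.8% of all windows. A match describes the letters, not binding, and other positions and looser forms were not searched. Cnn1 and Des had no CArG match, and a link of these letters to the slide columns was not tested.

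The comparison asked which of these genes TM3 cells express differently after 24 h with PNP. None of the 8 members that could be tested passed: their log2 differences, PNP minus control, ran from 0.019 for Tpm2 to 0.19 for Tpm1 and Myh11, with adjusted p from 0.832 to 0.983 (limma, Benjamini-Hochberg over 13138 genes). Over all genes tested 0 passed as well (0%), and 856 (6.52%) had an unadjusted p below 0.05, 5.02% of genes being higher and 1.49% lower with PNP. None of the members reached that level. Vim and Actg2 had too few values once outlier spots were left out, and with these spots kept they had no call either. In these bulk samples fewer cells of a type and less RNA per cell cannot be told apart.

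The 95% intervals bound the change. For all 10 genes, Vim and Actg2 with outlier spots kept, a 2-fold rise and a 2-fold fall both lay outside the interval, and for 9 of them so did 1.5-fold changes. The exception was Myl9, whose interval reached from 0.724-fold to 1.51-fold. The narrowest were those of Tagln, from 0.928-fold to 1.23-fold, and Tpm2, from 0.879-fold to 1.17-fold. For Cnn1 the 1.5-fold bound rests on leaving out 1 outlier spot: the interval reached 1.72-fold with that spot kept and 1.68-fold on its dimmer probe. The dimmest Acta2 probe reached 1.67-fold.

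**Figure D1:**
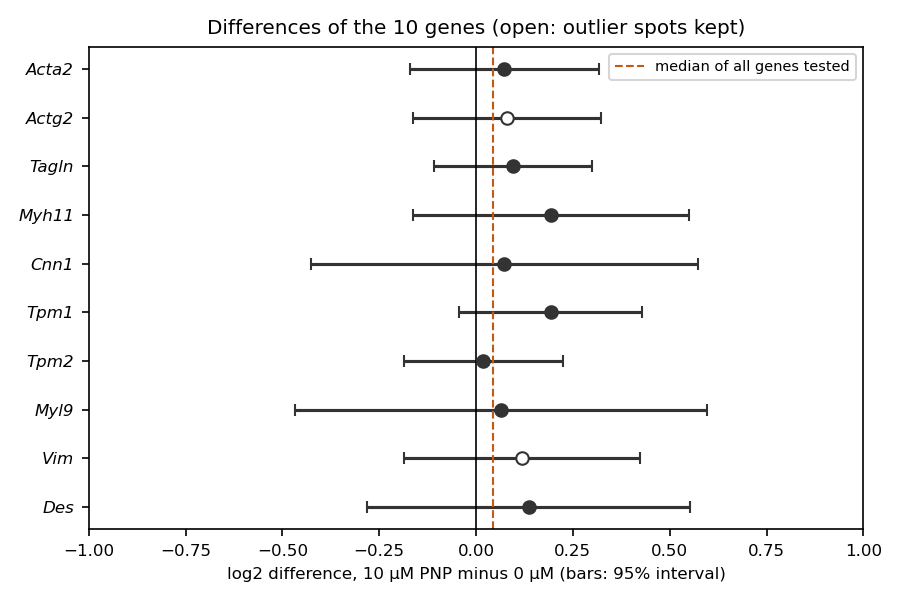
Log2 differences (10 µM PNP minus 0 µM, x axis) of the 10 genes (y axis), with points for the fitted value and bars for the 95% interval, open for genes measured with outlier spots kept, and a dashed line at 0.043 for the median of all genes tested. Every interval crosses 0, and those of Cnn1 and Myl9 are the widest.

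All 8 tested members had a positive difference, with a median of 0.085, against 63% of all genes tested and a median of 0.043 over all genes. Of the members 7 of 8 exceeded the median of all genes. That was 6 of 8 under quantile normalization and in the values the authors had normalized. With no filter on dim probes the median of all genes was 0.099, above that of the members, 3 of 8 members exceeded it, and 70.6% of genes were positive. The count of positive members rests on the scaling. With arrays scaled on their median 6 of 8 were positive, with Tpm2 and Acta2 turned negative. The median of all genes was then -0.018 and the positive share 44.2%. The same 6 were positive under quantile normalization (53.7% of all genes) and in the values the authors had normalized (53.9%). For Tagln and Tpm1, 2 of 8 members, each PNP value exceeded each control, as for 9.66% of all genes, and 13.4% of genes had groups apart in either direction. With arrays scaled on their median, 0 members had groups that did not overlap (12.6% of all genes).

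Among the actin genes, Acta2 encodes smooth muscle alpha actin, the main actin of contractile cells. Its brightest probe had scaled log2 signals of 3.42, 3.36 and 3.35 in controls 1, 2 and 3, and 3.49 and 3.41 in PNP replicates 2 and 3, with an outlier spot of 3.66 in PNP replicate 1. The groups overlapped, and the difference was 0.073 (SE 0.10, adjusted p = 0.951 with limma), resting on 2 PNP values. Without PNP replicate 2 it was 0.26 and without PNP replicate 3 it was 0.22, then on the next brightest probe.

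Acta2 had 2 further probes, which did not follow the first. The dimmest read -1.92, -0.83 and -1.90 in controls and -1.29, -1.51 and -1.53 with PNP. Control replicate 2 thus stood 1.08 above the mean of the other controls, a 2.11-fold gap, where the brightest probe gave -0.03 for the same contrast. The middle probe stood between them, at 0.29. Probe sequences were not used here, so what part of the Acta2 transcripts each probe reads, and whether it also reads the closely related actins, was not tested.

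Actg2 encodes smooth muscle gamma actin. Its single probe carried outlier spots on 3 arrays, which left 1 PNP value. With those kept, it read 2.63, 2.40 and 2.34 in controls and 2.55, 2.54 and 2.52 with PNP, a difference of 0.079 (SE 0.11, adjusted p = 0.940 with limma, over 15046 genes tested in this setting, of which 0 passed). The PNP values lay within the range of the controls. In this setting 11% of genes had groups that did not overlap, 2.91% with PNP lower, and neither Actg2 nor Vim was among them.

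Tagln encodes transgelin, an actin-bundling protein that marks early smooth muscle. It read 2.20, 2.25 and 2.23 in controls and 2.39, 2.26 and 2.31 with PNP, with no outlier spot. Every PNP value lay above every control, with PNP replicate 2 and control replicate 2 nearly level. The difference was 0.096 (SE 0.09, 95% interval -0.11 to 0.30, adjusted p = 0.936 with limma).

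**Figure D2:**
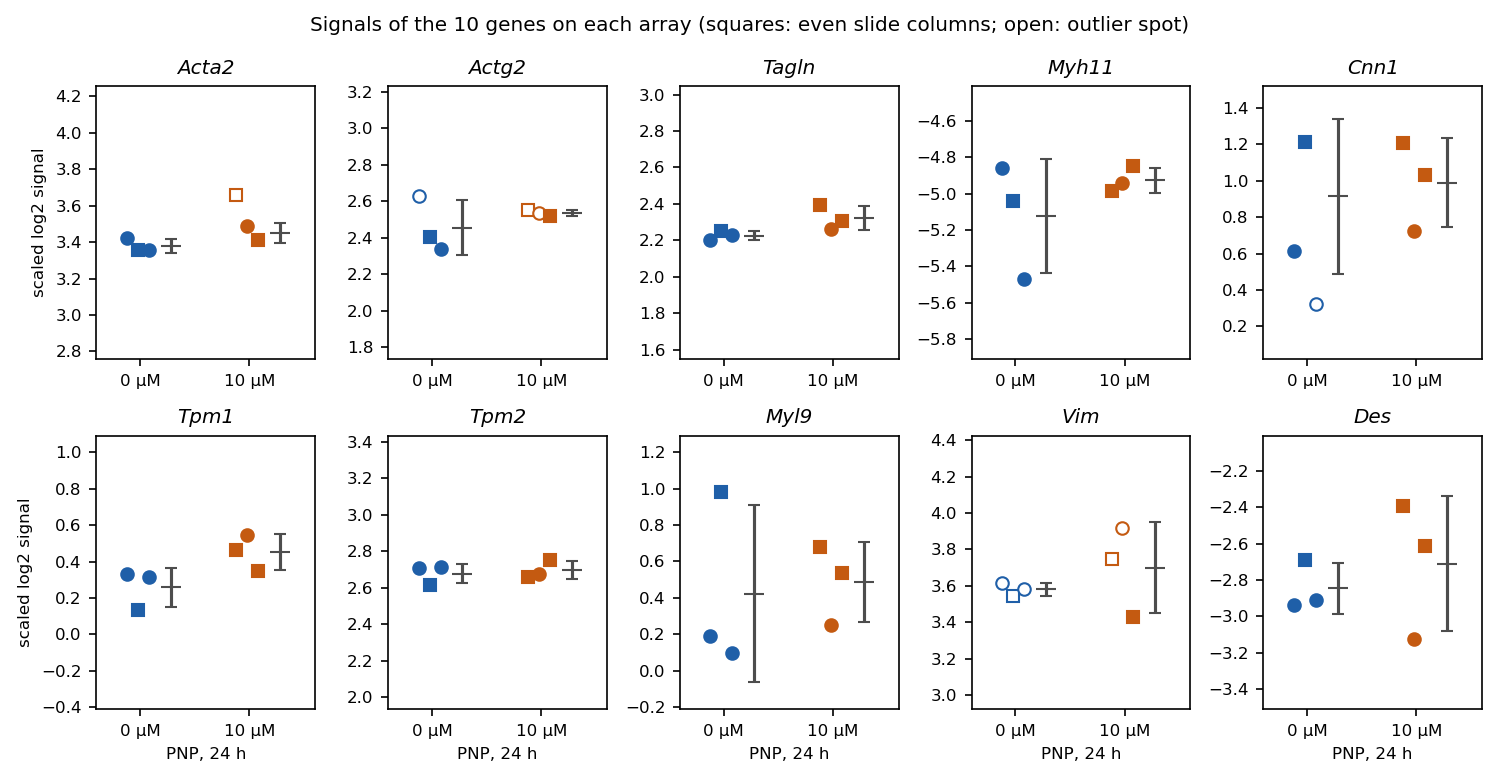
Scaled log2 signal (y axis, the same span of 1.5 in each panel) of the 10 genes on each array at 0 µM and 10 µM PNP (x axis), with circles for odd and squares for even slide columns, open where the spot was marked as an outlier, and bars for mean ± SD (outlier spots left out, but kept for Actg2 and Vim). The squares lie above the circles for Cnn1, Myl9 and Des, and the groups overlap for all genes but Tagln and Tpm1 among the values used.

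Tropomyosins wind along actin filaments and gate the access of myosin. Tpm1 read 0.33, 0.13 and 0.31 in controls and 0.46, 0.55 and 0.35 with PNP on the probe that could be tested. The PNP values lay above the controls, and the difference was 0.19 (SE 0.10, 95% interval -0.04 to 0.43, adjusted p = 0.832 with limma). It held in both kinds of slide column, at 0.27 within even and 0.22 within odd columns. The 2 brighter Tpm1 probes, annotated to other transcripts of the gene and left out for outlier spots on 3 and 4 arrays, gave 0.037 and 0.16 with those spots kept, and on both the groups overlapped.

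Tpm2, the beta tropomyosin, was the steadiest member. Its brighter probe read 2.71, 2.62 and 2.71 in controls and 2.66, 2.68 and 2.75 with PNP, a range of 0.14 over the 6 arrays. Its difference of 0.019 (SE 0.09) turned to -0.041 with arrays scaled on their median. The dimmer probe stood at -0.056 (SE 0.13), so the sign of Tpm2 was not settled.

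Cnn1 encodes calponin 1, which binds actin and slows the myosin motor. Its brighter probe read 0.61 and 1.21 in controls 1 and 2, with an outlier spot of 0.32 in control 3, and 1.21, 0.72 and 1.03 with PNP. Controls spanned 1.85-fold with that spot kept, against 1.40-fold with PNP, and all PNP values lay between the lowest and the highest control. The difference was 0.073 (SE 0.21, adjusted p = 0.971 with limma), and 0.27 (SE 0.22, adjusted p = 0.918 with limma) with the outlier spot kept. The dimmer Cnn1 probe had its highest control in the same replicate, with -2.48, -1.61 and -2.61 in controls and -1.999, -2.13 and -1.995 with PNP. As the mean of both probes the gene stood at 0.20 (SE 0.22). Without control replicate 2 the brighter probe had too few values, and the dimmer one gave 0.50 (adjusted p = 0.867 with limma). Without PNP replicate 1 the brighter probe gave -0.036.

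Myl9 encodes the regulatory light chain of smooth muscle and non-muscle myosin II. It read 0.19, 0.98 and 0.097 in controls and 0.68, 0.25 and 0.54, none an outlier, in the treated group. Control replicate 2 stood 1.79-fold above the other controls and above every PNP array, where this array was the highest control for 29.5% of genes and stood 0.5 or more (log2) above the others' mean for 1.66%. The PNP difference was 0.066 (SE 0.23, 95% interval -0.47 to 0.60), which became 0.34 without control replicate 2. It was -0.050 without control replicate 1, -0.098 without control replicate 3 and -0.030 without PNP replicate 1, so single arrays decided its sign.

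Myh11, the smooth muscle myosin heavy chain and a late marker of contractile differentiation, was close to the dim end. Of its 3 probes 1 was well above background on all 6 arrays, another on 1 array and the last on none. The first read -4.86, -5.04 and -5.47 in controls and -4.99, -4.94 and -4.85 with PNP. Control replicate 3 was the lowest array, and the difference of 0.19 (SE 0.15, adjusted p = 0.912 with limma) became 0.021 without control replicate 3 and 0.33 without control replicate 1.

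Vim encodes vimentin, the intermediate filament protein of mesenchymal cells. Its single probe was marked as an outlier on 5 of the 6 arrays, all but PNP replicate 3. With the spots kept it read 3.62, 3.54 and 3.58 in controls and 3.75, 3.92 and 3.43 with PNP. The controls were close together and the PNP arrays spread on both sides of them, so the difference of 0.12 (SE 0.13, adjusted p = 0.938 with limma) had no settled sign: it was -0.081 after quantile normalization.

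Des encodes desmin, the intermediate filament protein of muscle. It read -2.94, -2.69 and -2.91 in controls and -2.40, -3.12 and -2.61 with PNP. PNP replicate 2 was the lowest array and PNP replicate 1 the highest, and the difference was 0.14 (SE 0.18, adjusted p = 0.951 with limma). It was 0.34 without PNP replicate 2 and -0.021 without PNP replicate 1.

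Cnn1, Myl9 and Des shared 1 feature over the arrays: the 3 arrays of even slide columns (control replicate 2, PNP replicates 1 and 3) all lay above the 3 of odd columns. This held for 3 of the 8 tested members and for 11.7% of all genes, and no member had the reverse order, against 8.64% of all genes. In a fit with treatment and column together, even minus odd was 0.60 (SE 0.13) for Myl9, 0.48 (SE 0.12) for Cnn1 and 0.43 (SE 0.13) for Des. Their adjusted p for the column term was 0.129, 0.200 and 0.229 with limma over 13100 genes, of which 19 passed (0.145%), so none of the members did. These 3 of 8 members had an unadjusted p below 0.05 with even columns higher, as had 6.67% of all genes (12.4% in either direction). Under quantile normalization and in the authors' values, Acta2 and Tagln joined them, 5 of 8 members against 14.5% and 14.4% of all genes with even arrays above odd. In the main setting the middle Acta2 probe, which did not stand for the gene, also had every even array above every odd one. Its even minus odd value was 0.25 (SE 0.12). On the dimmest Acta2 probe this value was 0.59 (SE 0.21), with even and odd arrays overlapping, and on the brightest it was -0.050. Column was examined because earlier results of these arrays had shown it, and the columns hold 1 control against 2 PNP arrays and 2 against 1, so column and treatment are partly tied.

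**Figure D3:**
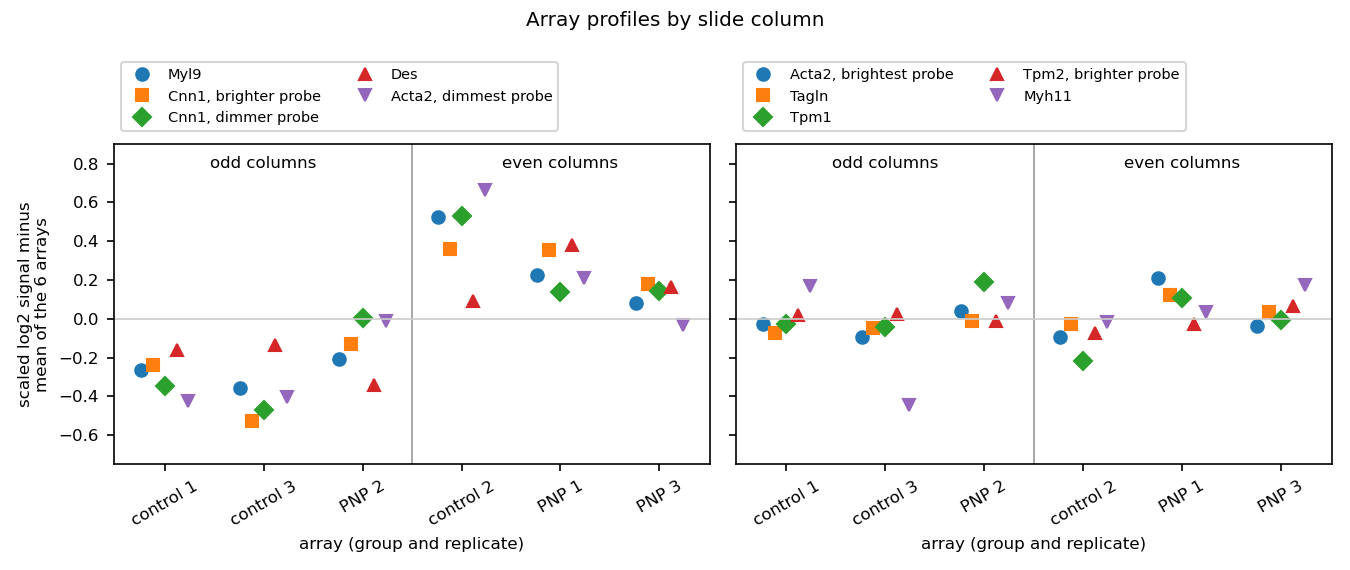
Scaled log2 signal minus the mean of the 6 arrays (y axis) for 5 probes on the left and 5 on the right, with arrays (x axis) ordered by odd and even slide column and 1 point per probe and array, outlier spots included. On the left the arrays of even columns lie above those of odd columns for Myl9, both Cnn1 probes and Des, while control replicate 2 is the highest array for the dimmest Acta2 probe, and on the right no probe separates by column. The middle Acta2 probe, which does separate by column, is not shown.

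Within columns the PNP differences of these genes had no common sign. For Myl9 PNP minus control was -0.37 within even and 0.11 within odd columns, for Cnn1 -0.096 and 0.11, and for Des 0.18 and -0.20. With column as a block the PNP difference was -0.13 (SE 0.13) for Myl9, -0.0072 (SE 0.12) for Cnn1 and -0.0059 (SE 0.13) for Des. Tagln kept 0.076 and Tpm1 0.25 in that fit, with adjusted p of 0.974 and 0.577 with limma. Without control replicate 2 the even minus odd value was 0.36 for Myl9, 0.62 for Des and 0.13 for Cnn1, the last on its dimmer probe. Without PNP replicate 2 it was 0.24 for Des (adjusted p = 0.965 with limma), 0.84 for Myl9 and 0.60 for Cnn1.

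The summed signals of all 9 marker lists overlapped between odd and even columns. Unlike the tests, these sums kept outlier spots and took the brightest probe of each gene, tested or not. The 7 peritubular myoid and smooth muscle markers include Acta2, Myh11, Cnn1, Tagln and Des themselves. Their summed scaled signal ran from 18.7 to 20.3 in odd and from 20.03 to 23.2 in even columns, and 2 of the 6 tested, Cnn1 and Des, had the even columns on top. For the 6 epithelial markers, Epcam and Cdh1 not above background, the sum ran from 1.588 to 1.92 in odd and from 1.49 to 1.66 in even columns, and 1 of 4 tested had the even columns at the bottom. That was Krt8, a keratin of simple epithelia picked out here after its values were seen, lower in even columns by an even minus odd value of -0.89 (SE 0.14, adjusted p = 0.0648 with limma). Krt8 read -2.86, -3.10 and -2.83 in odd and -3.62, -3.96 and -4.01 in even columns. For the 10 fibroblast and mesenchymal markers the sum ran from 72.3 to 78.5 in odd and from 67.8 to 84.1 in even columns. By treatment, the summed myoid list ran from 18.7 to 20.03 in controls and from 20.2 to 23.2 with PNP. The PNP sums include the outlier spot of Acta2 on PNP replicate 1. Without Acta2 the list ran from 8.52 to 9.79 against 9.05 to 10.5, where the groups overlapped. The sum of 9 skeletal and cardiac muscle markers ran from 8.91 to 9.85 in controls and from 10.3 to 11.1 with PNP, 0 of 5 tested genes passing. It includes Acta1 and Actc1, both left out of the test for outlier spots. The sum of the 5 endothelial markers was apart as well, from 0.054 to 0.068 in controls and from 0.070 to 0.073 with PNP. None of these 5 was above background on all 6 arrays. For the remaining lists the sums of the 2 groups overlapped. The part of these markers in the values of the members was not tested.

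With each gene on its brightest tested probe, Myl9 had the widest range of the members measured on all 6 arrays, 0.88, while dimmer probes of Acta2 and Cnn1 ranged over 1.09 and 1.00. By the root mean square difference between centred array profiles, the 3 most alike of 11109 genes were D630029K05Rik (0.072), the galectin Lgals4 (0.083) and the histone gene H2bc4 (0.093), where the median gene stood at 0.33. Des came 527th of these genes at 0.22. Cnn1, Acta2, Actg2 and Vim lacked a value on at least 1 array and were not ranked. With its outlier spot kept, the brighter Cnn1 probe ranged over 0.89. The profiles share the arrays and their positions.

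The neighbours of the 10 genes were read in 6 lists of the cytoskeleton, and 0 genes of any list passed in either direction. Of the other actins, tropomyosins, calponins and transgelins, 6 of 10 were tested and 6 had a positive difference, with a median of 0.090. Actb, the cytoplasmic beta actin, read 3.76, 3.63 and 3.65 in controls and 4.01, 3.92 and 3.78 with PNP, a difference of 0.22 (SE 0.10, adjusted p = 0.772 with limma) with groups that did not overlap. Actg1, cytoplasmic gamma actin, stood at 0.051 (SE 0.09) and Tpm4 at 0.15 (SE 0.11, 2 PNP values). Acta1, the skeletal muscle actin, was left out for outlier spots and stood at 0.39 (SE 0.13, adjusted p = 0.836 with limma) with them kept.

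Of the myosin II motors, light chains and their kinases and phosphatase, 10 of 12 were tested, 6 with a positive and 4 with a negative difference (median 0.11). Myl12b, a regulatory light chain of non-muscle myosin, read 3.54, 3.43 and 3.38 in controls and 3.75, 3.64 and 3.71 with PNP, 0.25 (SE 0.09), and Myh14, a non-muscle myosin heavy chain, stood at 0.33 (SE 0.13). Both had groups that did not overlap and an adjusted p of 0.740 with limma. Of the genes of the 7 lists that were tested with outlier spots left out, members included, these 2 had an unadjusted p below 0.05. They were 2 of 10 tested in their list. The other lists had 0 of 8 (the members), 6, 5, 11, 12 and 7, where 6.52% of all genes had such a p. With outlier spots kept there were 4, Acta1 and Cald1 besides, where 5.93% of all genes had such a p. They were 2 of 12 tested in the myosin list, 1 of 9 in that of Acta1 and 1 of 6 in that of Cald1. The remaining lists had 0 of 10 (the members), 12, 12 and 10.

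SRF and its cofactors and targets had 11 of 13 genes tested, 8 positive and 3 negative, with a median of 0.075. Srf itself stood at 0.082 (SE 0.09) and its cofactor Mrtfa at 0.027 (SE 0.09), while Myocd, the muscle cofactor, was above background on 0 of 6 arrays. Elk1, a partner that competes with these cofactors, stood at 0.18 (SE 0.11) and Ccn1, a secreted matrix protein, at -0.19 (SE 0.15), each from 2 PNP values and Ccn1 also from 2 controls. With outlier spots kept Ccn1 stood at 0.060 (SE 0.16).

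Other smooth muscle contractile genes had 5 of 12 tested, 3 positive and 2 negative (median 0.044). Lmod1, Synpo2, Pln, Kcnmb1, Ppp1r14a and Itga8 of this list were not above background on any array, and Cald1, left out for outlier spots, stood at 0.36 (SE 0.11, adjusted p = 0.836 with limma) with them kept. Pdlim7, an adaptor of actin fibres, stood at 0.16 (SE 0.10) and Cav1, of caveolae, at -0.13 (SE 0.12). 

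Intermediate filaments and their linkers had all 12 tested, 6 positive and 6 negative, with a median of -0.019. Gfap stood at 0.27 (SE 0.13) and the nuclear lamin Lmna at -0.23 (SE 0.11), with adjusted p of 0.795 and 0.810 with limma and Lmna resting on 2 PNP values. Actin crosslinkers and adhesion adaptors had 7 of 10 tested (4 positive, median 0.043), with Flnc, a muscle filamin, at 0.15 (SE 0.10) and Actn1, an alpha actinin, at -0.12 (SE 0.13) from 2 values per group.

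**Figure D4:**
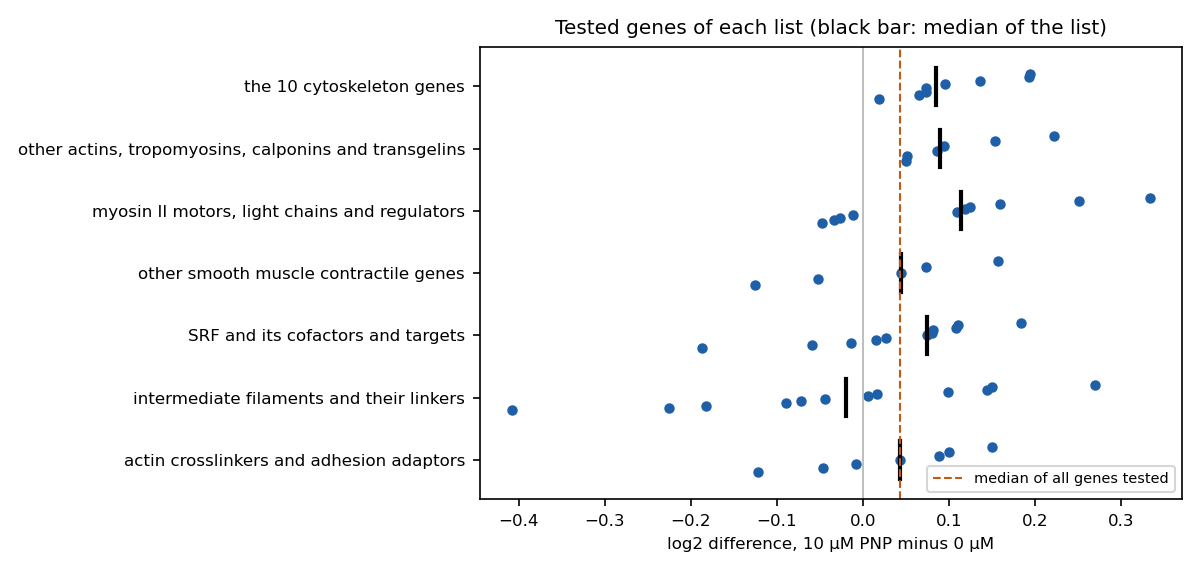
Log2 differences (10 µM PNP minus 0 µM, x axis) of the tested genes of the 7 lists (y axis, 1 point per gene), with the median of each list as a black bar and that of all genes tested as a dashed line at 0.043. List medians lie between -0.019 and 0.11, and no gene passed the test.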

How the data were processed

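RNA of 6 samples was hybridised to 1-channel Agilent mouse arrays after linear amplification, per the labels. The deposited scanner files hold intensity values that the authors obtained with Agilent Feature Extraction 11.5.1.1 per the file headers (10.7 per the submitters' processing notes); the main column is the software's processed signal, and its background settings are not given in the sources used. The labels name Cy3 although the columns are of the red channel. A normalized table that the authors deposited, used as an alternative, has log2 values with nearly 1 distribution for all columns and a median of 8.27 each; neither labels nor headers record its making. The arrays were designed on mm9 per the file headers, and no probe coordinates were used.

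With R 4.3.3 and limma 3.58.1, processed signals were divided by the 75th percentile of the array (control probes excluded) and log2 was taken. Outlier spots (non-uniform or population) were left out, and a probe was tested if well above background on all 3 arrays of a group with at least 2 values per group: 27222 of 56605 probes, and 12 of the 18 member probes (4 were left out for outlier spots and 2 were below background). Probes were named through unversioned accessions in RefSeq GRCm38.p6 (33767 named), since the files hold no gene symbols, and the brightest tested probe stood for a gene. limma tested PNP minus control without covariates, two-sided, with Benjamini-Hochberg adjustment over 13138 genes at 0.05. The normexp alternative used median spot signals, as the files hold no mean signal. The number of arrays limits the precision, with a median 95% half-width of 0.28 (log2). The procedure was tested on simulated data.

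The 10 genes, the lists and the tests were chosen with earlier results of these data known. Named are all members, the 2 genes of smallest p in each neighbouring list, Srf, Myocd, Mrtfa, Actb and Actg1, markers not above background on any array, and the 3 genes closest in profile to the member of widest range. Outside this rule, Krt8, Cald1, Acta1 and the markers above background on all arrays or on some were named after their values were seen. Replicate numbers are shared by the groups, and deviations of same-numbered arrays correlated at -0.31, -0.22 and -0.026. Every same-numbered pair had an array in an odd and an array in an even slide column. These correlations therefore cannot separate pairing from slide column, and whether the numbers pair the samples was left undecided.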

Additional observations from a re-analysis of the deposited data

How the results depend on the processing

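No member passed the threshold under any alternative (adjusted p from 0.313 to 1.00 with limma), and of 106 member values under alternatives that keep all arrays 92 kept their direction. Part of this count was fixed in advance. Changes to the filter on dim probes left the differences of the tested members as they were. The replicate block did so for tested members with a value on every array. The count of all genes past the threshold was 1 with slide column as a block (2 probes) against 0, and from 0 to 23 (0 to 59 probes) with 1 array left out, highest without PNP replicate 1. Members whose groups did not overlap numbered 2, against 0 under median scaling and 1 each under quantile normalization, with the authors' values and with outlier spots kept (12.6%, 12.8%, 12.8% and 11% of all genes, in that order). With 1 array left out it was from 2 to 4, beside 16.9% to 33.5% of all genes. The members' median ran from 0.048 to 0.19 with 1 array left out.

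Differences turned as follows, and the cause was not tested. Acta2 was -0.014 under median scaling, -0.019 under quantile normalization and -0.0084 with the authors' values. Tpm2 was -0.041, -0.060 and -0.058 in the same order, -0.019 as a mean of probes and -0.016 with slide row as a block. With slide column as a block Cnn1 was -0.0072, Myl9 -0.13 and Des -0.0059. Vim, with outlier spots kept, was -0.081 under quantile normalization, -0.0095 under normexp and -0.047 with the authors' values, settings added after seeing the data. With 1 array left out Myl9 ran from -0.098 to 0.34, Cnn1 from -0.036 to 0.50, Des from -0.021 to 0.34 and Tpm2 from -0.012 to 0.036. With the replicate number as a block, 0 genes passed and the members' median was 0.096; the block changed no call. With slide row as a block that median was 0.19, against 0.093 for all genes, from -0.016 for Tpm2 to 0.45 for Des. Row is tied to treatment: all controls lie in row 1, where PNP replicate 1 is the only PNP array. For genes with a value on that array, the fit compares it alone with the controls. Signal over background limits Myh11, near the dim end.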
